A study of Mus musculus with 12 samples.

Results

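Ribosome biogenesis and nucleolar genes were followed in MC38 cells, an established mouse colon adenocarcinoma line. The set was chosen by symbol and held 47 genes. Of these, 46 had an entry among the 42329 genes of the deposited RNA-seq table, and all 46 were expressed above the filter used for testing. Utp4 had no entry under that symbol; RefSeq gives Cirh1a as a synonym, and the Cirh1a entry is described below with the other genes of the pathway. The study has 4 groups of 3 libraries. The guide RNA was a control (sgControl) in one line and targeted Hcar1, which encodes a lactate receptor, in the other (sgHcar1). Each line was given PBS as vehicle or 20 mM lactate for 24 h. The sources used here do not say whether a line is a clone or a pool, nor whether a group's libraries are separate cultures. The p-values therefore measure library-to-library spread, which may be technical. With 1 line per guide, an effect of the guide cannot be told apart from other differences between the 2 lines.

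Several facts of the whole table bear on what follows. Values are FPKM (fragments per kilobase of transcript scaled to the mapped fragments of a library), which keep no read totals, so the depth is unknown; the steps between low values give relative depths of 0.746 to 1 between libraries. Summed FPKM per library ran from 310109 to 324562 in sgControl cells. In sgHcar1 cells the sums were 362815 to 367977 with PBS and 411996 to 421984 with lactate. Scaling therefore matters for any comparison that includes sgHcar1 cells. Hcar1 itself was listed at 0 in 6 of 6 sgControl libraries and in 5 of 6 sgHcar1 libraries, with a highest value of 0.0196 FPKM (exact permutation test, two-sided p = 1), so its level cannot check the guide. The columns of the sgHcar1 groups carry a code letter that was assigned by elimination. Among markers of colon epithelium, Epcam and Cdx2 were listed at 0 in all 4 groups. The others with at least 1 FPKM in some group differed between the lines in opposite directions: Krt18 averaged 46.2 and 113 FPKM in sgHcar1 cells in PBS and lactate and 0.0274 and 0 in sgControl cells, while Cdh1 (1.72 and 4.53) and Krt19 (1.31 and 0.3002) were detected in sgControl cells and listed at 0 in sgHcar1 cells. Leukocyte markers summed to at most 0.025 FPKM and endothelial markers to at most 0.748. Fibroblast markers summed to 117 to 120.1 FPKM with PBS and 100.2 to 105 with lactate in sgControl cells. In sgHcar1 cells they summed to 136 to 145 with PBS and 54.8 to 59.2 with lactate; Lum and Thy1 were at 0. These sums hold markers that went opposite ways: from sgControl to sgHcar1 cells in PBS, Col3a1 averaged 67.2 and 1.55 FPKM and Pdgfra 5.02 and 0.462, while Col1a2 averaged 45.5 and 115 and Col1a1 1.01 and 23.1. Whether these marker differences play a part in the results below was not tested.

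Ribosomes are made in the nucleolus. RNA polymerase I copies the ribosomal DNA into a long precursor RNA, small nucleolar ribonucleoproteins (snoRNPs) guide its chemical modification and some of its cuts, and a large set of assembly factors folds and trims it while ribosomal proteins join, first into a shared particle and then into the precursors of the small and the large subunit. Growing and dividing cells, tumour cells among them, transcribe these genes strongly, and the transcription factor Myc is a known activator of many of them. The members were grouped by these roles: 7 of RNA polymerase I and its factors, 8 of the snoRNPs, 13 (of 14 listed) of the small subunit, 14 of the large subunit and 4 abundant nucleolar proteins.

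Promoter sequences are shown for members that rose and for members that fell with lactate, since the data bear on their transcripts. RefSeq windows of 300 bases around the start (GRCm38.p6; 250 bases before it and 50 after) were matched for 42 of the 47 genes, Utp4 included; Bop1, Rrs1, Rrp12, Fbl and Npm1 had none. A set of 5 short motifs was searched on both strands. The ETS-type core CCGGAAG was in 19 of 42 member windows (45.2%), in 9.93% of all 27025 gene windows and in 21.3% of the windows of tested genes. The E-box CACGTG, a form that Myc with Max can bind, was in 9 of 42 (21.4%), against 8.09% of all windows and 11.9% of those of tested genes. TCTCGCGA was in 4 of 42 (9.52%), against 1.13% and 2.66%. GCGCATGC was in 2 of 42 (4.76%), against 3.05% and 6.28%, and AAGATGGC was in 0 of 42, against 3.19% and 5.75%. The 160 bases before the start are printed for 9 genes: Nop2 and Utp18, which hold both the E-box and the ETS core there; Tsr1, Nop14 and Nop58, which hold TCTCGCGA or its reverse complement; Brix1, Polr1c and Nhp2, which hold the ETS core; and Nop10, which holds none of the 5. Capitals mark the matches, and each sequence runs 5′ to 3′ on the strand of its gene.
Nop2, chr6:125131723-125131882, plus strand: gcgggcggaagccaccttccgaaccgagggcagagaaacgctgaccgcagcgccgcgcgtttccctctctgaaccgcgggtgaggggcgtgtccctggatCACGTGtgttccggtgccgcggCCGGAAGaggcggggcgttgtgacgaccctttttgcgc
Utp18, chr11:93885767-93885926, minus strand: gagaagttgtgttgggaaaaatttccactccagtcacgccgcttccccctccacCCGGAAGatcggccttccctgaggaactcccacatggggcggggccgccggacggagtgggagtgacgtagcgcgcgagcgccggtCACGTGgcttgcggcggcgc
Tsr1, chr11:74897920-74898079, plus strand: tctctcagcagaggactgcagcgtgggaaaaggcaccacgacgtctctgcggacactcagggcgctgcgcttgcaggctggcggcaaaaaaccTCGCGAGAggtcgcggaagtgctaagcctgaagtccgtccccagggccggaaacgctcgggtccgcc
Nop14, chr5:34660149-34660308, minus strand: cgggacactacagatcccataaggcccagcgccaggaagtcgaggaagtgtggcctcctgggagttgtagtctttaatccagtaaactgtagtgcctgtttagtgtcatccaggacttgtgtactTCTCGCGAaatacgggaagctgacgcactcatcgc
Nop58, chr1:59684846-59685005, plus strand: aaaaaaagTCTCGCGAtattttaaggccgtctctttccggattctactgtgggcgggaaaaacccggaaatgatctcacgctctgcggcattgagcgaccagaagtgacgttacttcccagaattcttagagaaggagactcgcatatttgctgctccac
Brix1, chr15:10485938-10486097, minus strand: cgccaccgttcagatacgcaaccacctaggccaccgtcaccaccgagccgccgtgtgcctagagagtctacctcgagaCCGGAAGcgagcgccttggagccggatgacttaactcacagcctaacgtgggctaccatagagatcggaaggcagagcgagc
Polr1c, chr17:46248046-46248205, minus strand: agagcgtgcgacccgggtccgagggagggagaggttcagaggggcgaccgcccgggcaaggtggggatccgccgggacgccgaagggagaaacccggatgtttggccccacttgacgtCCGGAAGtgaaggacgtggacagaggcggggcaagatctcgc
Nhp2, chr11:51619613-51619772, plus strand: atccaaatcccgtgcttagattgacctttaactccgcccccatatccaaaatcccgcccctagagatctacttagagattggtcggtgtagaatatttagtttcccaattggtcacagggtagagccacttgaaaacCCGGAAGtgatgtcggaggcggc
Nop10, chr2:112261766-112261925, plus strand: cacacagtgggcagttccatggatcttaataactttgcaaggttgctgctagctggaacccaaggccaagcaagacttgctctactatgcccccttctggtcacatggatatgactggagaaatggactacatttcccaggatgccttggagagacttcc
A match is a description of these letters and does not show binding. Nhp2 and Nop10 fell in lactate while Nop14, Nop58 and Brix1 rose, and the ETS core stood ahead of genes of either direction.

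In all, these genes took a larger share of the library in lactate. The FPKM of the 46 members summed to 2037.5 ± 3.1 (SD, n = 3 here and below) in sgControl cells in PBS and 2279.1 ± 10.9 in lactate. In sgHcar1 cells the sum was 2459.2 ± 37.5 in PBS and 3466.6 ± 104.4 in lactate. These sums were 0.630%, 0.728%, 0.672% and 0.832% of all FPKM in the libraries, and within each line the shares in PBS and lactate did not overlap. Npm1, the most abundant member, made up much of them; the other 45 summed to 1588.3, 1859.8, 1905.7 and 2674.7 FPKM in the same order. The median member stood at 29.4, 33.5, 34.2 and 48.3 FPKM. FPKM is per length, so levels can be compared between genes: Npm1 averaged 553.5 FPKM over the 12 libraries, and the lowest member, Polr1e, 6.08 FPKM.

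In sgControl cells, 30 of 46 members rose with lactate, 8 fell and 8 did not pass the test (limma on log2(FPKM + 1), Benjamini-Hochberg over 13736 genes, adjusted p threshold 0.05). Of all genes tested, 33.9% were called higher and 31.9% lower. With a change of at least 1.5-fold also required, 13 members rose and 2 fell, where 11.5% and 10.9% of all genes did. The median log2 difference of the members was 0.27 and that of all genes 0.00. In sgHcar1 cells 37 members rose with lactate, 5 fell and 4 did not pass, against 36.8% higher and 35.4% lower among all genes. At 1.5-fold or more, 24 rose and 1 fell, against 18.3% and 16.3%. The median log2 difference was 0.61, again beside 0.00 for all genes. The members were chosen with earlier results of these data known, so these counts are a description and not independent evidence of a direction.

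**Figure D1:**
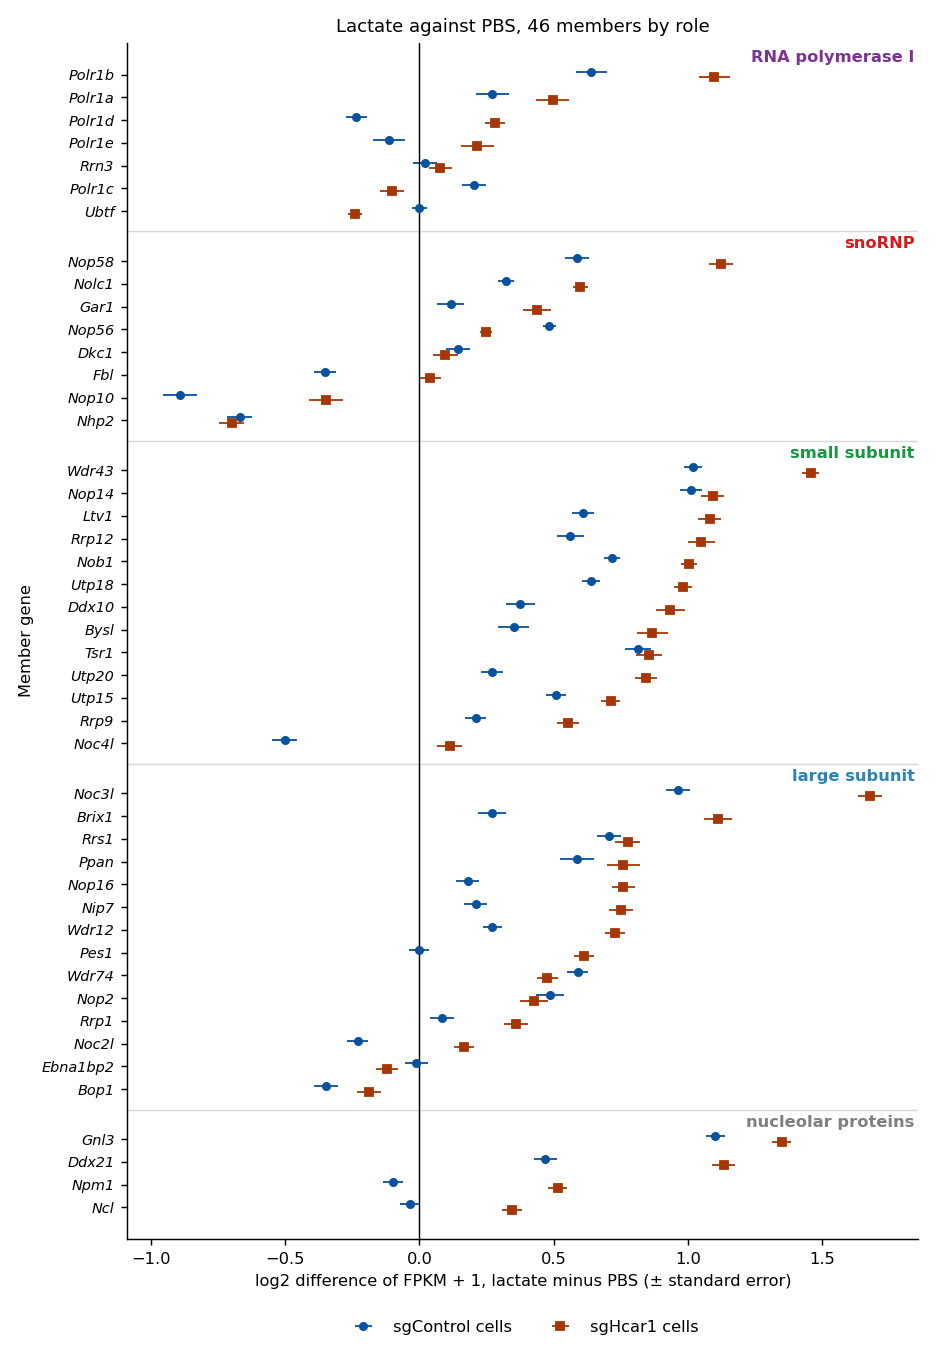
Each row is 1 of the 46 members, grouped by role; the horizontal axis gives the log2 difference of FPKM + 1 between lactate and PBS with its standard error, for sgControl and for sgHcar1 cells (3 libraries a group). All 13 small-subunit members lie right of 0 in sgHcar1 cells, and Nop10 and Nhp2 lie left of 0 in both lines.

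Small-subunit factors rose almost throughout. They build the early particle on the precursor RNA and later trim and export the small subunit. Of all genes tested, 33.9% were called higher and 31.9% lower in sgControl cells, and 36.8% and 35.4% in sgHcar1 cells. In sgControl cells 12 of the 13 factors rose and 1 fell, with a median log2 difference of 0.56. In sgHcar1 cells 13 of 13 rose, with a median of 0.93. Wdr43, of the complex that first binds the precursor, had the largest rise of the group in both lines. Its FPKM was 44.2, 44.3 and 41.9 in sgControl cells in PBS and 89.2, 89.7 and 88.3 in lactate, and 45.5, 44.8 and 43.2 and 121, 129 and 123 in sgHcar1 cells. The lactate libraries lay above every PBS library, and the log2 differences were 1.02 ± 0.03 (SE) and 1.46 ± 0.03 (adjusted p = 5.32e-10 and 2.08e-11). Nop14, a scaffold of the early small-subunit particle, rose in both lines, by 1.01 ± 0.04 and 1.09 ± 0.04: its FPKM went from 27.8, 30.2 and 27.6 to 57.96, 59.8 and 57.9 in sgControl cells and from 43.2, 41.6 and 43.03 to 86.9, 94.8 and 94.2 in sgHcar1 cells. The sgHcar1 libraries lay above the sgControl libraries of the same treatment.

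Noc4l, which pairs with Nop14, went against its group in sgControl cells. Its FPKM was 17.9, 15.8 and 17.1 there in PBS and 11.996, 11.4 and 11.5 in lactate, so it fell, with no overlap of libraries and a log2 difference of -0.50 ± 0.05 (adjusted p = 2.36e-06). In sgHcar1 cells it was 19.9, 19.9 and 21.6 and 22.6, 21.96 and 22.02, with a log2 difference of 0.11 ± 0.05 (adjusted p = 0.044), the smallest rise of the group. That call was lost without sgControl PBS library 3, sgControl lactate library 2 or 3, sgHcar1 PBS library 1 or 2, or any 1 sgHcar1 lactate library (log2 differences of 0.09 to 0.12, adjusted p = 0.054 to 0.135), and the value was -0.07 with each library scaled to the same sum and -0.01 with quantile normalization. Nob1, the endonuclease that trims the end of the small subunit's RNA, rose by 0.72 ± 0.03 and 1.00 ± 0.03. Bysl, needed for small-subunit maturation, rose by 0.35 ± 0.06 and 0.87 ± 0.06. Ltv1 and Rrp12, which take part in late assembly and export, rose by 0.61 ± 0.04 and 0.56 ± 0.05 in sgControl cells and by 1.08 ± 0.04 and 1.05 ± 0.05 in sgHcar1 cells. The helicase Ddx10 rose by 0.38 ± 0.05 and 0.93 ± 0.05, and the scaffold Utp20 by 0.27 ± 0.04 and 0.84 ± 0.04. The remaining 4 rose in both lines: Utp15 (0.51 ± 0.04 and 0.71 ± 0.04) and Utp18 (0.64 ± 0.03 and 0.98 ± 0.03), of the early particle, Rrp9 (0.21 ± 0.04 and 0.55 ± 0.04), a protein of the snoRNP that directs its cuts, and Tsr1 (0.82 ± 0.05 and 0.86 ± 0.05), of the late particle.

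Of the large-subunit factors, 9 of 14 rose and 2 fell in sgControl cells (median 0.24), beside 33.9% and 31.9% of all genes. In sgHcar1 cells 12 rose and 2 fell (median 0.67), beside 36.8% and 35.4% of all genes. Noc3l, which works with Noc2l on the early large-subunit particle, had the largest rise of the group in both lines. Its FPKM was 12.3, 11.997 and 10.8 in sgControl cells in PBS and 24.3, 23.99 and 22.9 in lactate, and 13.5, 13.5 and 13.3 and 44.1, 46.6 and 45.1 in sgHcar1 cells. Its log2 differences were 0.96 ± 0.04 and 1.68 ± 0.04 (adjusted p = 8.95e-09 and 6.27e-11), and the libraries of the 2 treatments did not overlap in either line. Brix1, an assembly factor that binds the precursor RNA, rose from 21.7, 24.7 and 22.1 to 26.7, 28.5 and 27.98 FPKM in sgControl cells and from 24.4, 26.5 and 27.4 to 56.7, 57.7 and 58.4 in sgHcar1 cells. The log2 differences were 0.27 ± 0.05 and 1.11 ± 0.05, so its rise was small in one line and among the largest in the other.

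Pes1, Bop1 and Wdr12 form 1 complex (PeBoW) that is needed to process the large subunit's RNA, and they did not move together. Wdr12 rose in both lines, by 0.27 ± 0.04 and 0.73 ± 0.04, with FPKM of 3.41, 3.42 and 3.23 and 4.18, 4.31 and 4.27 in sgControl cells and 6.75, 6.52 and 6.27 and 11.3, 11.4 and 11.7 in sgHcar1 cells. Pes1 was at 47.6, 47.6 and 49.8 and 45.6, 49.00 and 50.3 in sgControl cells, where the libraries overlapped and the log2 difference was 0.00 ± 0.04 (adjusted p = 0.981), and rose from 48.3, 50.6 and 48.6 to 74.1, 76.2 and 76.8 in sgHcar1 cells, by 0.61 ± 0.04. Bop1 fell in both, with log2 differences of -0.35 ± 0.04 and -0.19 ± 0.04: from 61.9, 57.6 and 58.3 to 48.2, 43.7 and 47.1 FPKM in sgControl cells and from 69.3, 67.3 and 71.3 to 58.3, 62.4 and 61.5 in sgHcar1 cells. Noc2l fell in sgControl cells (-0.23 ± 0.04) and rose in sgHcar1 cells (0.17 ± 0.04). Ebna1bp2 did not pass in sgControl cells (-0.01 ± 0.04, adjusted p = 0.853) and fell in sgHcar1 cells (-0.12 ± 0.04). Rrs1, which helps to bring the separate small ribosomal RNA into the large subunit, rose by 0.71 ± 0.05 and 0.78 ± 0.05, and Nop2, a methyltransferase of the large subunit's RNA, by 0.49 ± 0.05 and 0.43 ± 0.05. Nop16 (0.18 ± 0.04 and 0.76 ± 0.04), Wdr74 (0.59 ± 0.04 and 0.48 ± 0.04), Nip7 (0.21 ± 0.04 and 0.75 ± 0.04) and Ppan (0.59 ± 0.06 and 0.76 ± 0.06) rose in both lines, and Rrp1 in sgHcar1 cells alone passed the test (0.36 ± 0.04, beside 0.08 ± 0.04 in sgControl cells). The fall of Ebna1bp2 in sgHcar1 cells was lost without PBS library 1 or 3 or lactate library 2 or 3 of that line (-0.10 to -0.12, adjusted p = 0.0599 to 0.0815). Rrp1 passed in sgControl cells without lactate library 2 (0.12, adjusted p = 0.0333), and the value of Noc2l in sgHcar1 cells was -0.02 with a common sum.

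**Figure D2:**
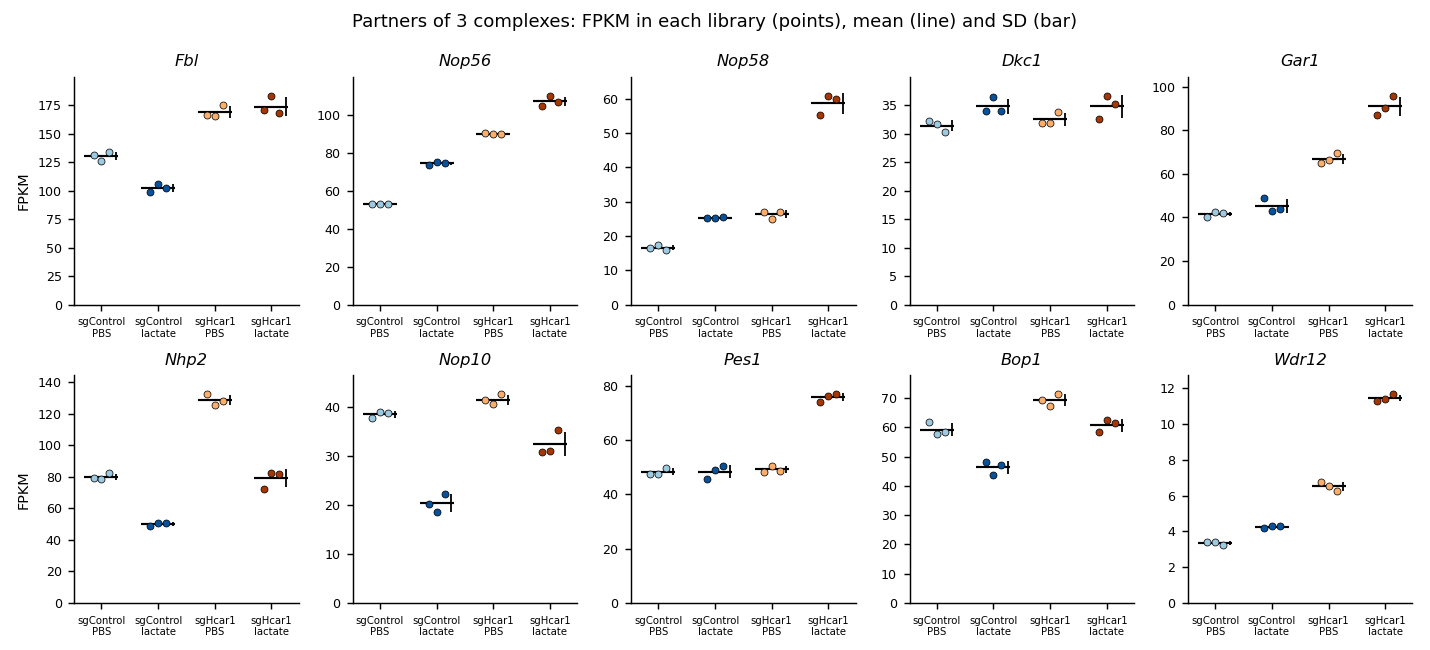
Each panel shows 1 member of the snoRNPs or of the PeBoW complex; the vertical axis is FPKM, points are the 12 libraries by group, horizontal lines are group means and vertical bars the SD (n = 3). Nop58 and Wdr12 are highest in sgHcar1 cells in lactate, whereas Nop10, Nhp2 and Bop1 are lower in lactate than in PBS within each line.

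The snoRNP proteins held both rises and falls. One class of snoRNP, with the methyltransferase Fbl and the core proteins Nop56 and Nop58, adds methyl groups, and the other, with the enzyme Dkc1 and the core proteins Nop10, Nhp2 and Gar1, converts uridine to pseudouridine. Of all genes tested, 33.9% were called higher and 31.9% lower in sgControl cells, and 36.8% and 35.4% in sgHcar1 cells. Among the 8 members, 4 rose and 3 fell in sgControl cells, and 4 rose and 2 fell in sgHcar1 cells. Their medians were 0.13 and 0.17. Counts of 8 genes cannot set the group apart from those shares. Nop58 had the largest rise: its FPKM was 16.4, 17.3 and 15.9 in sgControl cells in PBS, 25.3, 25.2 and 25.5 in lactate, 27.1, 24.97 and 26.9 in sgHcar1 cells in PBS and 55.2, 60.8 and 59.9 in lactate. The log2 differences were 0.59 ± 0.04 and 1.12 ± 0.04 (adjusted p = 5.69e-07 and 1.59e-09), with no overlap of libraries within a line. Its partner Nop56 rose by 0.48 ± 0.02 and 0.25 ± 0.02, while Fbl, the enzyme of the same particle, fell in sgControl cells (-0.35 ± 0.04) and stood at 0.04 ± 0.04 in sgHcar1 cells (adjusted p = 0.403), or at -0.15 with a common sum (adjusted p = 0.0121).

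Nop10 and Nhp2 fell with lactate in both lines, the largest falls among the 46. Nop10 was at 37.6, 38.96 and 38.8 FPKM in sgControl cells in PBS and at 20.2, 18.6 and 22.2 in lactate, a log2 difference of -0.89 ± 0.06 (adjusted p = 2.87e-07). In sgHcar1 cells it was at 41.2, 40.5 and 42.5 and 30.8, 31.1 and 35.3, a difference of -0.35 ± 0.06 (adjusted p = 0.000413). The libraries of the 2 treatments did not overlap in either line. Nhp2 went from 79.5, 78.7 and 82.3 to 48.7, 50.9 and 50.4 FPKM in sgControl cells and from 132, 126 and 128 to 72.4, 82.5 and 82.1 in sgHcar1 cells, with log2 differences of -0.67 ± 0.05 and -0.70 ± 0.05. Gar1, of the same particle, did not pass in sgControl cells (0.12 ± 0.05, adjusted p = 0.0658) and rose in sgHcar1 cells (0.44 ± 0.05). Nolc1, a chaperone of both classes, rose by 0.32 ± 0.03 and 0.60 ± 0.03. Dkc1 rose in sgControl cells (0.14 ± 0.05) and stood at 0.10 ± 0.05 in sgHcar1 cells (adjusted p = 0.0839). The rise of Dkc1 was lost without PBS library 3 or lactate library 2 of sgControl cells (0.11 to 0.12, adjusted p = 0.0656 to 0.0695), and Dkc1 passed in sgHcar1 cells without lactate library 1 (0.14, adjusted p = 0.0137). Without sgControl lactate library 2, Gar1 passed as a rise (0.15, adjusted p = 0.0378).

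The RNA polymerase I subunits and factors held both rises and falls. Of all genes tested, 33.9% were called higher and 31.9% lower in sgControl cells, and 36.8% and 35.4% in sgHcar1 cells. Among the 7 members, 3 rose and 1 fell in sgControl cells, and 4 rose and 1 fell in sgHcar1 cells. Their medians were 0.02 and 0.21. Counts of 7 genes cannot set the group apart from those shares. Polr1b, the second-largest subunit of the catalytic core, was the one with a rise of at least 1.5-fold in each line. Its FPKM was 9.34, 8.01 and 8.10 and 13.8, 13.5 and 13.9 in sgControl cells and 6.26, 6.49 and 7.21 and 15.4, 15.4 and 15.3 in sgHcar1 cells, and its log2 differences were 0.64 ± 0.06 and 1.10 ± 0.06 (adjusted p = 2e-06 and 1.39e-08). The lactate libraries lay above every PBS library. Polr1a, the largest subunit, rose by 0.27 ± 0.06 and 0.50 ± 0.06. Polr1c and Polr1d, which RNA polymerase III shares, differed: Polr1c rose in sgControl cells (0.20 ± 0.04) and stood at -0.10 ± 0.04 in sgHcar1 cells (adjusted p = 0.0553), and Polr1d fell in sgControl cells (-0.24 ± 0.04) and rose in sgHcar1 cells (0.28 ± 0.04). Ubtf, the factor that holds ribosomal DNA in an active state, stood at 0.00 ± 0.03 in sgControl cells (adjusted p = 1) and fell in sgHcar1 cells (-0.24 ± 0.03), with FPKM of 49.8, 48.7 and 50.97 and 50.3, 48.5 and 50.7, then 33.1, 33.5 and 34.2 and 27.9, 28.3 and 28.8. Polr1e, another subunit, stood at -0.11 ± 0.06 in sgControl cells (adjusted p = 0.126) and rose in sgHcar1 cells (0.22 ± 0.06), a call lost with a common sum (0.07, adjusted p = 0.36). Rrn3, which recruits the polymerase to the promoter, passed in neither line (0.02 ± 0.04 and 0.08 ± 0.04, adjusted p = 0.701 and 0.134). Without library 3 of sgControl PBS, sgHcar1 PBS or sgHcar1 lactate, Polr1c passed as a fall in sgHcar1 cells (-0.10 to -0.13, adjusted p = 0.0314 to 0.0438), as it did with a common sum (-0.29). Polr1e passed as a fall in sgControl cells without lactate library 3 (-0.18, adjusted p = 0.0158).

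Of the 4 abundant nucleolar proteins, 2 rose and 1 fell in sgControl cells, beside 33.9% and 31.9% of all genes. In sgHcar1 cells 4 of 4 rose, beside 36.8% of all genes. The medians of the 4 were 0.22 and 0.82. Gnl3, nucleostemin, a GTPase of proliferating cells, had the largest rise of any member in sgControl cells. Its FPKM was 53.01, 53.8 and 51.1 in PBS and 113, 116 and 113 in lactate, and 45.99, 45.5 and 43.8 and 112, 115 and 123 in sgHcar1 cells. The log2 differences were 1.10 ± 0.04 and 1.35 ± 0.04 (adjusted p = 6.18e-10 and 6.55e-11), and the libraries of the 2 lines lay close together in lactate. Ddx21, a helicase of ribosomal DNA transcription and processing, rose by 0.47 ± 0.04 and 1.13 ± 0.04. Ncl, nucleolin, did not pass in sgControl cells (-0.04 ± 0.04, adjusted p = 0.396) and rose in sgHcar1 cells (0.35 ± 0.04). Npm1, nucleophosmin, a chaperone of ribosomal particles, was at 441, 464 and 442 FPKM in sgControl cells in PBS and 424, 415 and 418 in lactate, where its libraries did not overlap, and at 555, 546 and 559.6 and 749, 802 and 824 in sgHcar1 cells. It fell with a log2 difference of -0.10 ± 0.04 in the former (adjusted p = 0.0326) and rose by 0.52 ± 0.04 in the latter. The fall was lost without sgControl PBS library 2 or any 1 sgControl lactate library (log2 differences of -0.08 to -0.11, adjusted p = 0.0504 to 0.121), and quantile normalization gave 0.03.

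**Figure D3:**
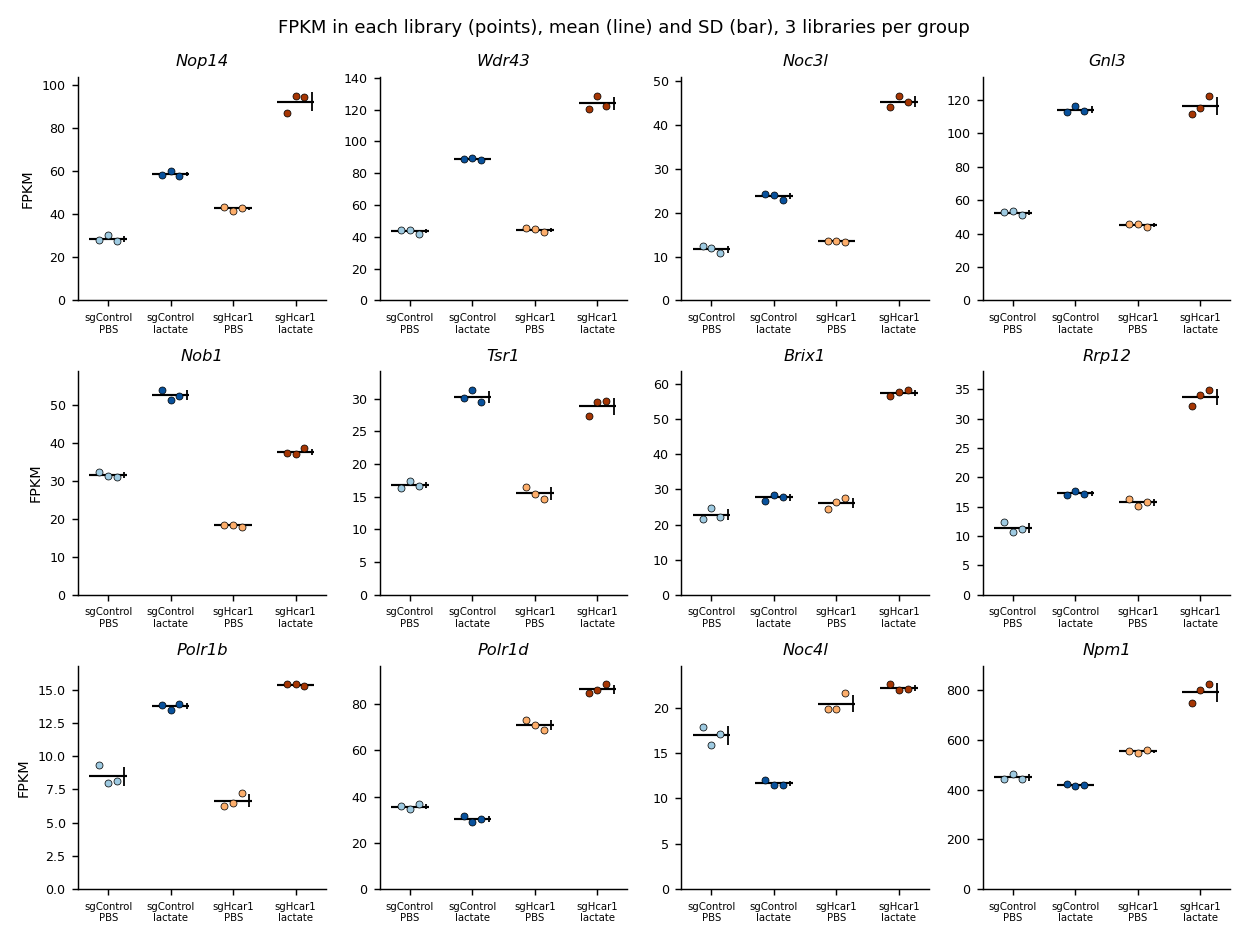
Each panel shows 1 of 12 members; the vertical axis is FPKM, points are the 12 libraries by group, horizontal lines are group means and vertical bars the SD (n = 3). Noc3l, Brix1, Polr1d and Npm1 are highest in sgHcar1 cells in lactate, and Gnl3 is higher in lactate than in PBS in both lines.

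Side by side, 28 of 46 members rose with lactate in both lines, as 23.1% of all genes tested did. Nop10, Nhp2 and Bop1 fell in both, as 21.5% of all genes did. Polr1d, Noc4l, Noc2l and Npm1 fell in sgControl cells and rose in sgHcar1 cells, a pattern of 3.57% of all genes; as given above, one of the calls behind it is lost without 1 library for Noc4l and for Npm1, and with a common sum for Noc2l. The 2 lactate comparisons share no libraries.

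The interaction asks whether lactate changed a gene differently in the 2 lines, as the log2 change in sgHcar1 cells minus that in sgControl cells. It was positive and past the threshold for 33 of 46 members and negative for 3, against 30.4% and 28.7% of all genes. At 1.5-fold or more, 6 were positive, close to the background of 11.8%; no member had a negative interaction of that size, with Polr1c lowest, and 11.9% of all genes did. The median was 0.34, with 0.01 for all genes. Scaling each library to the same FPKM sum gave 23 higher and 12 lower, where 2475 and 5754 of the 13736 genes were called. Quantile normalization gave 25 and 9, where 3790 and 4044 of all genes were called. Under the common sum the median of all genes stood at -0.20, and the median member lay 0.33 above it.

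The 6 were Brix1 (0.84 ± 0.07), Noc3l (0.72 ± 0.06), Ddx21 (0.67 ± 0.06), Pes1 (0.62 ± 0.05), Noc4l (0.62 ± 0.07) and Npm1 (0.61 ± 0.05), 3 of them large-subunit factors. With a common sum or with quantile normalization 1 of 46 members reached 1.5-fold, Brix1 in each case, against 8.01% and 10.5% of all genes. The 3 with a negative interaction were Polr1c (-0.31 ± 0.06), Ubtf (-0.24 ± 0.04) and Nop56 (-0.24 ± 0.03). By role, 11 of 13 small-subunit, 9 of 14 large-subunit and 4 of 4 abundant nucleolar members had a positive call, with medians of 0.44, 0.34 and 0.50. Polymerase members had 4 positive and 2 negative calls of 7, and snoRNP members 5 and 1 of 8. Of all genes, 30.4% had a positive and 28.7% a negative call. Nop14 (0.08 ± 0.06) and Nhp2 (-0.03 ± 0.07), which moved in opposite directions with lactate, were among those whose change was not shown to differ between the lines (adjusted p = 0.273 and 0.724); with a common sum the values were -0.16 and -0.26 (adjusted p = 0.0447 and 0.00398).

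In PBS, 27 of 46 members were higher in sgHcar1 than in sgControl cells, 9 were lower and 10 did not pass, against 38.2% higher and 38.4% lower among all genes. At 1.5-fold or more, 7 were higher and 1 lower, against 18.8% and 20.7%, so the count of higher members was near or below that of other genes. The median was 0.19, with 0.01 for all genes. With each library scaled to the same sum, 19 were higher and 17 lower, where 4032 and 6426 of the 13736 genes were called. On that scale the median of all genes was -0.16, and the median member lay 0.18 above it. A common sum left 2 higher and 6 lower at that fold, against 16.0% and 28.4% of all genes. The guide comparisons and the lactate comparisons share libraries, so their values are only set side by side.

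The snoRNP proteins had the highest median of the 5 roles in that comparison, 0.51, with 6 of 8 higher and the other 2 above 0 but not past the test. Nop56 was at 52.9, 52.7 and 52.96 FPKM in sgControl cells and 90.3, 89.8 and 89.9 in sgHcar1 cells in PBS, a log2 difference of 0.76 ± 0.02 (adjusted p = 9.63e-11) with no overlap. Dkc1 had the smallest difference of the group, 0.05 ± 0.05 (adjusted p = 0.359), or -0.13 with a common sum (adjusted p = 0.0335). Polymerase members ran from Polr1d at 0.98 ± 0.04, the largest difference of all members, to Ubtf at -0.56 ± 0.03. Of these 7, 2 were higher and 3 lower, beside 38.2% and 38.4% of all genes. Polr1d was at 35.7, 34.4 and 36.6 FPKM in sgControl cells and 73.3, 71.2 and 68.7 in sgHcar1 cells. Small-subunit members had 7 higher and 4 lower of 13, from Nop14 at 0.56 ± 0.04 to Nob1 at -0.76 ± 0.03; Nob1 was at 32.4, 31.4 and 31.02 FPKM in sgControl cells and 18.5, 18.4 and 17.96 in sgHcar1 cells, the 1 member lower by at least 1.5-fold. The other 3 that were lower in that group were Utp18 (-0.43 ± 0.03), Ddx10 (-0.39 ± 0.05) and Bysl (-0.37 ± 0.06). Large-subunit members had 10 higher of 14, led by Wdr12 (0.79 ± 0.04), and 1 lower, Nip7 (-0.53 ± 0.04), a factor that binds the precursor of the large subunit. Of the abundant proteins, Ncl (0.55 ± 0.04) and Npm1 (0.30 ± 0.04) were higher and Gnl3 (-0.22 ± 0.04) lower, though quantile normalization turned the value of Npm1 to -0.10 (adjusted p = 0.0605).

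In lactate, 36 of 46 members were higher in sgHcar1 than in sgControl cells, 5 were lower and 5 did not pass, against 41.3% higher and 40.9% lower among all genes. At 1.5-fold or more, 24 were higher and 1 lower, against 24.0% and 24.9%. The median was 0.64, with 0.01 for all genes. A common sum gave 25 higher and 16 lower, where 3580 and 7710 of the 13736 genes were called. On that scale the median of all genes was -0.37, and the median member lay 0.60 above it. Quantile normalization gave 32 and 10, where 5776 and 5394 of all genes were called. By the fold rule, 6 were higher with a common sum (13.0%, beside 15.5% of all genes) and 14 with quantile normalization (30.4%, beside 24.2%). The number lower was 3 in place of 5 without sgControl lactate library 3 or without sgHcar1 lactate library 1.

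Polr1d had the largest difference again (1.49 ± 0.04): its FPKM was 31.4, 28.8 and 30.1 in sgControl cells in lactate and 84.96, 86.01 and 88.7 in sgHcar1 cells. Wdr12 (1.24 ± 0.04), Nop58 (1.18 ± 0.04) and Nop16 (1.13 ± 0.04), a large-subunit factor, followed, with no overlap of libraries for any of the 4. Among small-subunit members Ltv1 led (0.98 ± 0.04), and among abundant proteins Ncl (0.94 ± 0.04). The 5 that were lower were Ubtf (-0.80 ± 0.03), Nob1 (-0.47 ± 0.03), Polr1c (-0.25 ± 0.04), Polr1e (-0.17 ± 0.06), a polymerase subunit, and Utp18 (-0.09 ± 0.03); Ubtf was the 1 of them lower by at least 1.5-fold. The calls of Utp18 (-0.07 and -0.06) and Polr1e (-0.11 and -0.14) are the 2 lost without sgControl lactate library 3 and without sgHcar1 lactate library 1 (adjusted p = 0.0819 to 0.119), and that of Utp18 also without sgHcar1 lactate library 3 (-0.09, adjusted p = 0.0501). Nip7 (0.01 ± 0.04), Dkc1 (0.00 ± 0.05) and Gnl3 (0.03 ± 0.04) had the smallest differences of their groups and did not pass (adjusted p = 0.902, 0.993 and 0.462). With a common sum they were lower in sgHcar1 cells, at -0.40, -0.41 and -0.38.

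**Figure D4:**
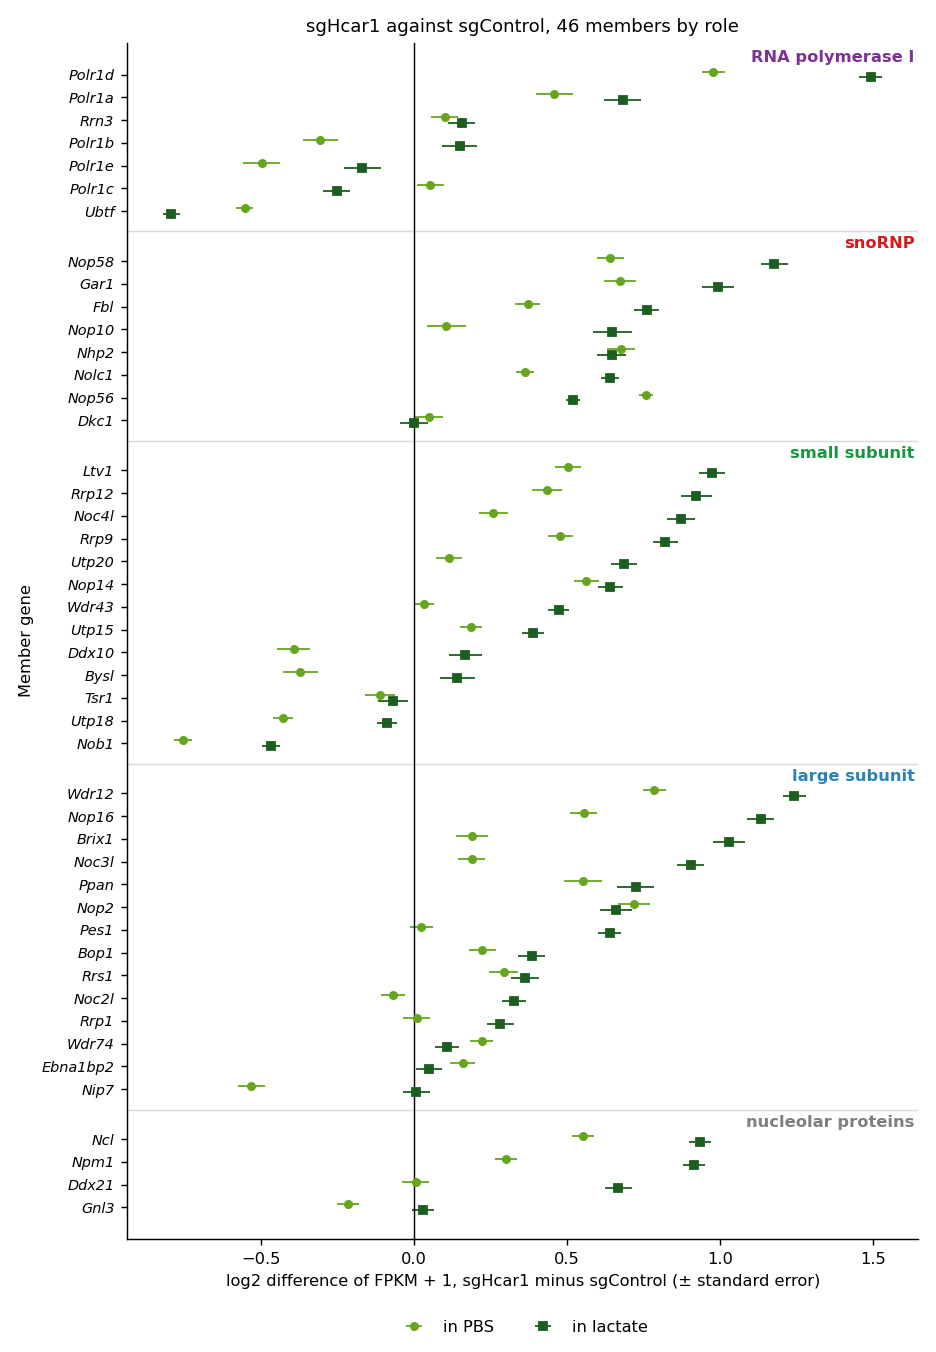
Each row is 1 of the 46 members, grouped by role; the horizontal axis gives the log2 difference of FPKM + 1 between sgHcar1 and sgControl cells with its standard error, in PBS and in lactate (3 libraries a group). Most points lie right of 0 and farther right in lactate, while Ubtf, Nob1, Polr1e, Utp18 and Tsr1 lie left of 0 in both.

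Gene length and small nucleolar RNA genes inside the members were looked up in GENCODE M21 (GRCm38) by symbol. Nop10 and Nhp2 are the 2 members whose merged exons span under 1500 bases (1109 and 1146), and the 648 tested genes of that size with a matched symbol had median log2 differences of -0.24 with lactate in sgControl cells and -0.16 in sgHcar1 cells. Across the 46 members Spearman's rho between merged exon length and the lactate difference was 0.26 in each line, and across 10332 tested genes 0.18 and 0.15; genes of 1 library share its RNA and are not independent replicates. What part length has in the falls of Nop10 and Nhp2 was not tested. A group of 8 members (Dkc1, Gnl3, Ncl, Nop56, Nop58, Ppan, Tsr1 and Wdr43) holds 23 annotated small nucleolar RNA genes within their bounds. Their median log2 differences with lactate were 0.59 and 0.81 in sgControl and sgHcar1 cells, and those of the 38 members without 0.24 and 0.58.

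**Figure D5:**
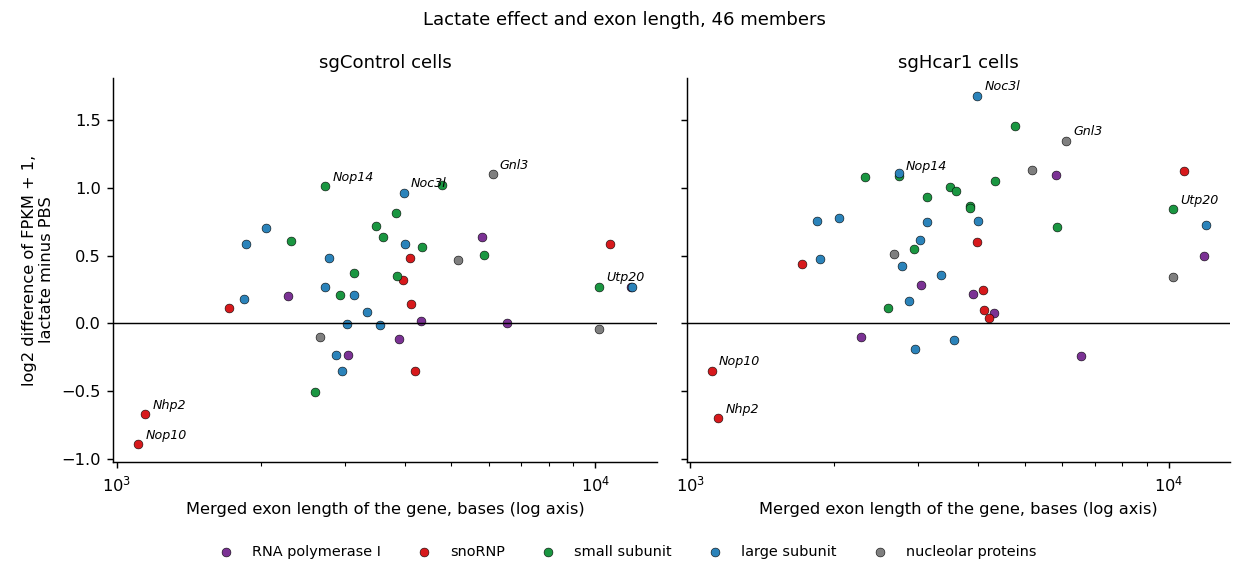
Each point is 1 of the 46 members, coloured by role; the horizontal axis is the merged exon length in bases (log axis) and the vertical axis the log2 difference of FPKM + 1 between lactate and PBS, in sgControl cells (left) and sgHcar1 cells (right). Nop10 and Nhp2 stand alone at the short end with negative values in both panels.

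Other genes of the pathway were counted from lists that hold no member under the symbol used for the set. The Cirh1a entry, named by a synonym of the listed gene Utp4, was counted among the other processing factors. Of 77 tested other processing factors of the subunits, 50 rose with lactate in sgControl cells and 8 fell (median 0.25). In sgHcar1 cells 63 rose and 7 fell (median 0.61). Among all genes tested, 33.9% were called higher and 31.9% lower in sgControl cells, and 36.8% and 35.4% in sgHcar1 cells. The Cirh1a entry, which carries the synonym of Utp4, a factor of the early small-subunit particle, was at 58.9, 60.1 and 62.2 FPKM in sgControl cells in PBS and 98.04, 100.03 and 103 in lactate, and at 32.4, 30.4 and 29.2 and 88.03, 85.9 and 86.9 in sgHcar1 cells. It rose by 0.72 ± 0.04 and 1.48 ± 0.04, with no overlap of libraries in either line. Gtpbp4, a GTPase of large-subunit assembly, had the largest rise of these factors in sgControl cells (1.16 ± 0.04) and also rose in sgHcar1 cells (1.75 ± 0.04), where Zfp622, a factor of late large-subunit maturation, rose by 1.83 ± 0.06 and Tex10 by 1.82 ± 0.04. Other RNA polymerase I genes, a list that also holds subunits shared with other polymerases, did not share that direction. Of 13, 4 were higher and 7 lower in sgControl cells, and 5 and 5 in sgHcar1 cells. Polr2l, a subunit of all 3 nuclear RNA polymerases, fell in both lines, with log2 differences of -1.02 ± 0.11 and -1.06 ± 0.11. Of 13 genes of the RNA exosome and its cofactors, which trim the precursor RNA, 4 rose and 8 fell in sgControl cells. In sgHcar1 cells 5 rose and 3 fell. The exosome rises in each line, and both polymerase counts in sgHcar1 cells, were near the shares of all genes given above.

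Myc was at 37.8, 35.3 and 35.03 FPKM in sgControl cells in PBS and 94.5, 98.95 and 98.1 in lactate, and at 40.9, 45.5 and 47.8 and 67.6, 68.8 and 63.7 in sgHcar1 cells. It rose in both lines, by 1.41 ± 0.05 and 0.57 ± 0.05 (adjusted p = 2.22e-09 and 2.39e-06), and the rise was smaller in sgHcar1 cells, with an interaction of -0.84 ± 0.08 (adjusted p = 4.82e-06). The sgHcar1 libraries lay above the sgControl libraries in PBS (0.30 ± 0.05) and below them in lactate (-0.54 ± 0.05). The interaction of Myc was negative, and that of 33 of the 46 members positive. Max, with which Myc can bind the E-box, averaged 25.5 and 39.2 FPKM in sgControl cells in PBS and lactate. In sgHcar1 cells Max averaged 18.6 and 43.9 FPKM. What part Myc or Max has in the changes of the members was not tested. Mdm2, the p53 antagonist that free ribosomal proteins can bind, rose by 0.94 ± 0.06 and 1.91 ± 0.06. Between the lines, Mdm2 was higher in sgHcar1 cells, by 1.76 ± 0.06 in PBS and 2.74 ± 0.06 in lactate, and Trp53, the gene of p53, was lower, with log2 differences of -1.53 ± 0.04 and -1.48 ± 0.04.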

How the data were processed

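RNA-seq of 12 MC38 libraries was read from the authors' deposited gene table, whose values are FPKM, per the file headers. HISAT2 2.0.5, featureCounts 1.5.0-p3 and the build GRCm38 are named in the submitters' processing notes; other settings are not given in the sources used here, and the gene identifiers are those of the C57BL/6NJ strain annotation. No read counts were used, so no count model was fitted. All 12 value columns were used (0 left out), mapped to groups by their names.

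FPKM were taken as log2(FPKM + 1). The 13736 genes that reached 1 FPKM in 3 or more libraries were fitted with limma 3.58.1 in R 4.3.3, with a mean per group over all 12 libraries, a variance trend and no replicate block. Two-sided p-values were adjusted by Benjamini-Hochberg over all genes, separately for the 5 contrasts (threshold 0.05); a second rule also needed 1.5-fold. Differences on this scale understate changes of low genes. The script was tested on simulated data. Alternatives were a pseudocount of 0.1, no filter, a minimum mean of 5 FPKM, median-ratio, common-sum (1000000) and quantile scaling, no trend, a replicate block, only the groups compared, and each library left out.

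Members, roles and lists were chosen with earlier results of these data known. Named genes were, per contrast and role, the members with the largest and smallest change and those against their group's direction. Any other member was named to account for the set. Also named were Myc, Max, Hcar1 and, of other lists, up to 3 rises and 3 falls.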

Additional observations from a re-analysis of the deposited data

Results flagged for a closer look

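The effect of lactate differed between the 2 lines, by the interaction in limma (Benjamini-Hochberg over all genes tested), for 36 of the 46 members; 30.4% of all genes had a positive and 28.7% a negative call. Values are log2 changes in sgHcar1 cells minus those in sgControl cells, and the groups of 3 libraries are too small for a test of single outlying libraries. Among RNA polymerase I members, the value was 0.52 for Polr1d, 0.46 for Polr1b, 0.33 for Polr1e, 0.22 for Polr1a, -0.24 for Ubtf and -0.31 for Polr1c. For snoRNP proteins it was 0.54 for Nop10, 0.54 for Nop58, 0.39 for Fbl, 0.32 for Gar1, 0.28 for Nolc1 and -0.24 for Nop56. Small-subunit members stood at 0.62 for Noc4l, 0.57 for Utp20, 0.56 for Ddx10, 0.52 for Bysl, 0.49 for Rrp12, 0.47 for Ltv1, 0.44 for Wdr43, 0.35 for Rrp9, 0.34 for Utp18, 0.29 for Nob1 and 0.20 for Utp15. Large-subunit members stood at 0.84 for Brix1, 0.72 for Noc3l, 0.62 for Pes1, 0.58 for Nop16, 0.54 for Nip7, 0.46 for Wdr12, 0.40 for Noc2l, 0.27 for Rrp1 and 0.16 for Bop1. For the abundant nucleolar proteins it was 0.67 for Ddx21, 0.61 for Npm1, 0.38 for Ncl and 0.25 for Gnl3. Scaling to a common sum ended the calls of Gnl3 (adjusted p = 0.765), Utp15 (0.766), Rrp1 (0.506), Nolc1 (0.385), Nob1 (0.15), Gar1 (0.3), Polr1e (0.17), Rrp9 (0.0854) and Bop1 (0.375), and that of Polr1a, whose value became -0.001. Over all alternatives the largest adjusted p was higher still for Nolc1 (0.431), Nob1 (0.325) and Bop1 (0.93). Quantile normalization turned the value of Gnl3 to -0.028. The calls of Polr1a and Bop1 were also lost when single libraries were left out. That of Polr1a was lost without sgControl PBS library 1 or 2, sgControl lactate library 2 or 3, sgHcar1 PBS library 1 or 2, or sgHcar1 lactate library 1 or 3 (0.17 to 0.23, adjusted p = 0.0589 to 0.0939). That of Bop1 was lost without sgControl PBS library 1 or 3, sgControl lactate library 2 or 3, sgHcar1 PBS library 1 or 2, or sgHcar1 lactate library 2 or 3 (0.12 to 0.17, adjusted p = 0.0524 to 0.1).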

How the results depend on the processing

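Alternatives for scaling, pseudocount, filter, variance model, block, libraries fitted and single libraries left out were run for every count and for each gene and comparison named. Scaling to a common sum changed counts most: members lower became 17 for the guide in PBS, 16 for the guide in lactate and 12 for the interaction. Of the 13736 genes tested, 6426, 7710 and 5754 were called lower on that scale in these comparisons. Quantile normalization gave 10 lower for the guide in lactate and 9 lower for the interaction, where 5394 and 4044 of all genes were lower. A fit of only the groups compared gave 3 lower for the guide in lactate, where 5515 of all genes were lower. Without sgControl lactate library 3 or without sgHcar1 lactate library 1, 3 were lower for the guide in lactate. The other counts by adjusted p alone stayed within 1.5 times. For the 1.5-fold rule, alternatives were chosen after seeing the data. A common sum gave 2 higher and 6 lower for the guide in PBS, against 16.0% and 28.4% of all genes. It gave 6 and 3 for the guide in lactate, against 15.5% and 40.2%. For the interaction it gave 1 higher, against 8.01%. Quantile normalization gave 14 and 2 for the guide in lactate, against 24.2% and 23.2%, and 1 higher for the interaction, against 10.5%. The cause of these shifts was not tested.

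Leaving out single libraries gave 29 to 31 higher and 7 to 8 lower for lactate in sgControl cells, 36 to 37 and 4 to 6 in sgHcar1 cells, 26 to 28 and 9 to 10 for the guide in PBS, 32 to 36 and 3 to 5 for the guide in lactate, and 31 to 34 and 3 to 4 for the interaction. The 3 lower came without sgControl lactate library 3 or without sgHcar1 lactate library 1.

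Of single values, 18 turned sign, 68 lost their call, 21 gained one and 3549 kept both. A further 22, of 10 results called in neither fit, changed sign without a call, among them Dkc1 (-0.087) and Rrn3 (-0.10) for lactate in sgHcar1 cells with a common sum. Of values called in at least 1 of the fits, with a common sum the log2 difference with lactate in sgHcar1 cells turned for Noc4l (-0.066), Noc2l (-0.018) and Fbl (-0.15). On that scale the guide difference turned for Dkc1 in PBS (-0.13) and for Nip7 (-0.40) and Gnl3 (-0.38) in lactate, and the interaction for Nop14 (-0.16), Polr1a (-0.001), Utp15 (-0.024) and Bop1 (-0.066). With quantile normalization, lactate values turned for Noc4l in sgHcar1 cells (-0.014) and for Ubtf (0.081) and Npm1 (0.034) in sgControl cells, guide values for Npm1 in PBS (-0.10) and for Nip7 (-0.16) and Gnl3 (-0.28) in lactate, and the interaction for Nop14 (-0.18) and Gnl3 (-0.028).

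No pairing by replicate number was seen: same-numbered libraries of different groups had deviations correlated at -0.051 to 0.085, and different-numbered libraries at -0.102 to 0.077. Such values cannot show that the libraries were unpaired by design. With the replicate block, 30 members were higher and 8 lower for lactate in sgControl cells, 37 and 6 in sgHcar1 cells, 28 and 9 for the guide in PBS, 36 and 5 for the guide in lactate, and 32 and 3 for the interaction. FPKM values give no read totals, so counting error could not be modelled, and members near 5 FPKM such as Polr1e and Wdr12 rest on fewer reads per base than Npm1.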

Other observations

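Pathway genes counted apart from the members, with the Cirh1a entry among the processing factors, also differed between the lines. Of the 77 other processing factors tested, 39 were higher and 18 lower in sgHcar1 than in sgControl cells in PBS (median log2 difference 0.13). In lactate 59 were higher and 11 lower (median 0.45). Of all genes, 38.2% were called higher and 38.4% lower in PBS, and 41.3% and 40.9% in lactate. A common sum moved the medians of all genes to -0.155 in PBS and -0.368 in lactate. The counts of this paragraph are given on the main scale alone. The interaction was positive and past the threshold for 47 of them and negative for 8 (median 0.26), with 30.4% and 28.7% of all genes so called. By subunit, the positive and negative calls were 23 and 2 of 38 small-subunit and 24 and 6 of 39 large-subunit factors. Other RNA polymerase I genes had 3 positive and 2 negative calls of 13, and exosome genes 6 and 2 of 13.

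The 18 tested members with the ETS core had median log2 differences with lactate of 0.30 in sgControl cells and 0.54 in sgHcar1 cells, and the 23 without it 0.27 and 0.71. The 8 tested members with the E-box had medians of 0.55 and 0.85, and the 33 without it 0.27 and 0.55. The 4 with TCTCGCGA (Nop14, Nop58, Polr1c and Tsr1) had 0.70 and 0.97, and the 37 without it 0.27 and 0.60. These are descriptions with no test.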
